A study of Musca domestica with 24 samples.

Results

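Heads were set against abdomens in house flies (Musca domestica) of the group coded N, which received double-stranded RNA (dsRNA) against Md-tra. The members are the 3 N head libraries and the 3 N abdomen libraries, 6 of the 24 libraries of the series, taken by their labels and not by any measured value. The flies are adult males in appearance of the strain III M (3-6), whose male determiner lies on chromosome III, and each library holds poly(A) RNA from the head or the abdomen of a single fly. Md-tra, the transformer gene of the house fly, directs female development, and dsRNA against green fluorescent protein (GFP), a jellyfish protein that flies lack, is the control. By the sample titles, N flies are genotypic females that Md-tra RNAi turned into males and SR flies are genotypic males with the same RNAi. The headers of the deposited comparisons use the terms the other way round, and the letters N and SR are therefore kept here. The 3 other groups, used only to show where N differs, are SR males, GFP males (genotypic males given GFP dsRNA) and GFP females (genotypic females given GFP dsRNA), again 3 heads and 3 abdomens each. All N and SR flies received Md-tra dsRNA, so within these groups tissue is the only labelled difference. The level of Md-tra is not analysed here, so the knockdown itself was not checked. The labels state no age.

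An adult fly head holds the brain, the compound eyes, the antennae and the mouthparts, with some fat body and muscle. The abdomen holds most of the gut, the excretory tubules, most of the fat body and the reproductive organs, which in males are the testes and accessory glands and in females mainly the ovaries. Genes for neuropeptides and neurotransmitter receptors are therefore known for head expression, and genes for gut enzymes, yolk, sperm and seminal fluid for abdominal expression. In bulk tissue, fewer cells of a type and less RNA per cell cannot be told apart.

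The deposited values were normalized counts that returned whole reads, and all levels are RPM (reads scaled to 1000000 per library). The N heads held 23355977, 12080603 and 19786022 reads (replicates 1, 2 and 3), and the N abdomens 2689265, 16113838 and 2756581. A single read was thus worth 0.372 and 0.363 RPM in abdomen replicates 1 and 3, against 0.0621 RPM in abdomen replicate 2 and at most 0.0828 RPM in a head. The tissue labels could be checked by few genes, because the identifiers carry no descriptions. Of the neural genes with a symbol, 3 of 6 tested were called higher in heads, among them pdf (a neuropeptide gene) and Mda2 (a nicotinic acetylcholine receptor subunit), which were at most 6.89 RPM in any abdomen. The others did not separate the tissues in that direction: para-like overlapped, and nAChRbeta3, of the same receptor family as Mda2, was higher in abdomens by its means (log2 difference -0.69, not called). Lysozyme was under 1 RPM in every N head. No gene of the lists for vision, testis, seminal fluid, fat body or muscle could be matched. Outside N, SR head replicate 2 stood apart. It had 126 RPM of lysozyme, against 0.0318 and 0.0583 RPM in SR head replicates 1 and 3. The 50 genes that were highest in N heads relative to N abdomens summed to 144034 RPM in SR head replicate 2, against 243498 and 230332 RPM. The 50 genes that were highest in N abdomens relative to N heads summed to 18695 RPM in that library, against 7.39 and 8.04 RPM in SR head replicates 1 and 3. Their median was not raised, at 0.0321 RPM against 0.0318 and 0.0583 RPM, so the sum came from only a part of these genes.

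Between N heads and N abdomens, 4587 of 11387 genes tested (40.3%) differed, 2360 (20.7%) higher in heads and 2227 (19.6%) lower in heads (limma on log2(RPM + 1), Benjamini-Hochberg adjusted p under 0.05). The tested genes had at least 1 RPM in 3 or more of the 6 libraries. All heads and all abdomens were separated without overlap for 6179 genes, and 4556 of those were also called. Of the called genes, 4098 differed at least 2-fold on this scale, 2009 higher in heads and 2089 lower. At least 1 RPM was reached in all 6 libraries by 8509 genes, in the 3 heads and no abdomen by 322, and in the 3 abdomens and no head by 1027. The median log2 difference over all genes was 0.13. The count of calls leaned on single libraries: it was 3008 without abdomen replicate 1 (67.1% of them higher in heads), 2933 without abdomen replicate 2, 2745 without head replicate 2 (40.6% higher) and 2525 without both shallow abdomens (74.9% higher), a fit in which 1 abdomen remains and the spread comes from the 3 heads alone.

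**Figure D1:**
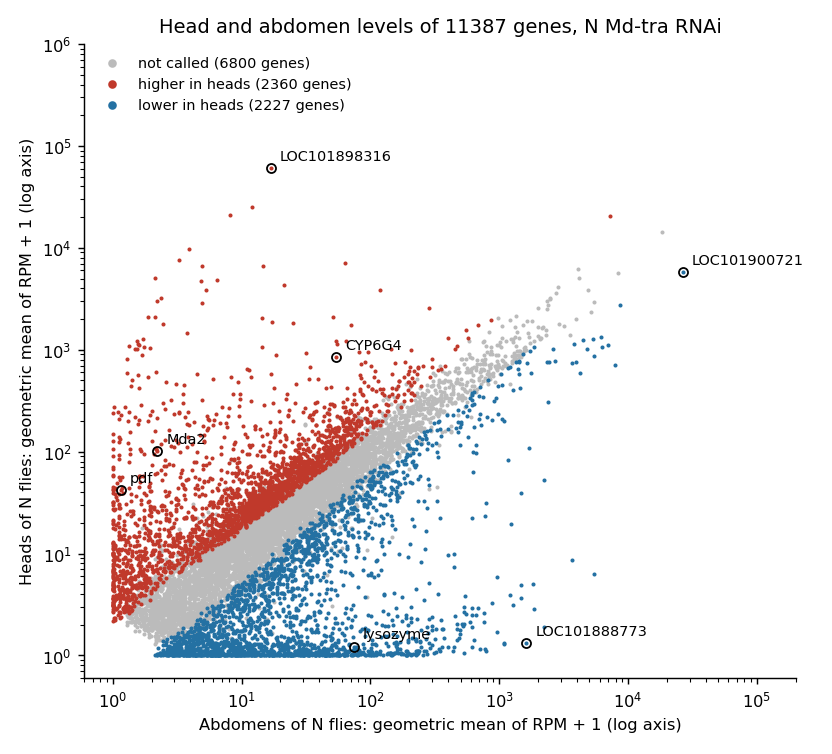
Mean level of each of 11387 genes in N abdomens (horizontal) and N heads (vertical), as the geometric mean of RPM + 1 over 3 libraries each on log axes. Red and blue points are the 2360 genes called higher and the 2227 called lower in heads; 7 genes are circled and named. Many called genes lie along either axis, close to 0 RPM in the other tissue.

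The largest head excess belonged to LOC101898316, whose role the tables do not annotate and which alone took 6.15% of the reads of an N head on average. Its level was 51455, 56290.4 and 76888 RPM in the 3 heads and 77.3, 7.51 and 6.17 RPM in the 3 abdomens. Every head lay far above every abdomen, and abdomen replicate 1 was about an order of magnitude above the other two. The difference was 11.81 ± 0.84 on the log2 scale (SE, n = 3 libraries per tissue, adjusted p = 4.43e-05), a 2028-fold ratio of the means. The next largest excess was that of LOC101892743, with 18756, 17838 and 28409 RPM in heads and 23.4, 3.35 and 3.99 RPM in abdomens, and LOC101900129 followed the same order of libraries with 23834, 18883 and 34264 RPM in heads and 32.7, 5.52 and 6.89 RPM in abdomens. In both genes abdomen replicate 1 was again the highest abdomen, and neither tissue's range came near the other's. LOC101890209, LOC105261864 and LOC105261733 had another pattern, lowest in head replicate 3: LOC101890209 had 13798, 13351 and 5069 RPM in the heads and 17.8, 0.807 and 0.726 RPM in the abdomens. LOC105261864 had 8806, 6754 and 2158 RPM in the heads and 6.69, 0.248 and 0 RPM in the abdomens, and LOC105261733 had 7435, 12978 and 4608 RPM in the heads and 14.5, 0.683 and 0.363 RPM in the abdomens. All 3 thus kept their order of heads and abdomens, although their head levels spread more than those of LOC101898316. LOC109613337, the only long noncoding RNA (lncRNA) among the 10 genes with the largest excess, had 3407, 3409.8 and 785 RPM in heads and 3.72, 0 and 0.363 RPM in abdomens (log2 difference 10.13 ± 0.74). The remaining 3 of the 10, LOC101892385, LOC101887669 and LOC101888514, had log2 differences of 10.42, 10.41 and 10.41. The call of each of the 10 was kept in every alternative run.

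The 10 genes with the largest abdominal excess had at most 26.7 RPM in any head. LOC101888773, also without an annotated role, had 2548, 1040.0 and 1585 RPM in the abdomens and 0.128, 0.828 and 0.101 RPM in the heads. Abdomen replicate 2 was the lowest abdomen and head replicate 2 the highest head, and the tissues stayed apart by about 3 orders of magnitude (log2 difference -10.26 ± 0.38, SE, n = 3 per tissue, adjusted p = 5.77e-06). The same order, with abdomen replicate 1 highest and replicate 2 lowest, held for LOC101893663, LOC101900845, LOC105262461, LOC109614465 and LOC101895746: LOC105262461, for example, had 1329, 533 and 707 RPM in abdomens and 0.0856, 0.166 and 0.0505 RPM in heads. These 5 genes had log2 differences between -9.28 and -9.72. A pair of lncRNAs followed another order. LOC101890350 had 3464, 33274 and 1356 RPM in the abdomens against 0.3, 26.7 and 5.81 RPM in the heads, and LOC109612143 had 585, 21353 and 508 RPM in abdomens against 0.343, 3.81 and 2.53 RPM in heads. Abdomen replicate 2 was the highest in both, and the spread among abdomens gave them the largest standard errors of the 10 genes (log2 differences -9.75 ± 1.37 and -9.35 ± 1.35). LOC101898612 had 7194, 783 and 1934 RPM in abdomens and 0, 4.47 and 0.253 RPM in heads, and LOC101900927 had 1009.6, 3103 and 275 RPM in abdomens and 0.171, 2.81 and 0.101 RPM in heads. In both, head replicate 2 was the highest head by more than an order of magnitude, yet far below any abdomen. All 10 calls were kept in every alternative run.

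Genes that took the most reads were not always those that differed. In the heads, 10 genes took on average 0.667% to 6.15% of the reads each. Of those, 9 were called higher in heads, and LOC101899737 was not called, with 13304, 10842 and 20423 RPM in heads and 35850.3, 6729 and 25268 RPM in abdomens (log2 difference -0.35 ± 0.69, adjusted p = 0.721). The abdomens shared that gene and were led by their mean by LOC101900721, at 2.68% of the reads. It had 30714, 28562 and 21043 RPM in abdomens and 8407, 7936 and 2907 RPM in heads (log2 difference -2.19 ± 0.53, adjusted p = 0.013). In single abdomens the most-read gene was LOC101899737 in replicates 1 and 3 and LOC101890350 in replicate 2. The call of LOC101900721 was lost with no filter on low genes (adjusted p = 0.1003). Without both shallow abdomens its log2 difference was -2.30. LOC109611815 was among the 10 genes with the most reads in both tissues and was higher in heads, with 21828, 24108 and 16219 RPM in heads against 6457, 6378 and 8993 RPM in abdomens (log2 difference 1.51 ± 0.40, adjusted p = 0.0196). That call was lost in 6 alternatives: TMM-scaled values (adjusted p = 0.0703), no filter, and the fits without abdomen replicate 2, head replicate 1, head replicate 2 or both shallow abdomens (adjusted p up to 0.187).

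By a fixed cut on every library, tissue-limited genes were more numerous in the abdomen. With at least 10 RPM in every library of one tissue and under 1 RPM in every library of the other, 70 genes were limited to N heads and 373 to N abdomens. Of the 70 head genes 59 were protein coding and 1 was an lncRNA in the RefSeq gene table, and of the 373 abdominal genes 315 were protein coding and 12 were lncRNAs. The rest had no match there. Since 3 reads, the detection floor used here, are worth 1.12 and 1.09 RPM in abdomen replicates 1 and 3, under 1 RPM in these libraries means at most 2 reads. Single libraries weigh on both counts. The 50 genes with the largest head excess had medians of 2.23, 0.372 and 0.363 RPM in the N abdomens. The 50 with the largest abdominal excess had medians of 0.0856, 1.61 and 0.202 RPM in the N heads. The counts were not repeated without abdomen replicate 1 or head replicate 2. In GFP males, every head lay above every abdomen for 70 of the 70 head genes, and every abdomen above every head for 370 of the 373 abdominal genes. In SR the counts were 67 and 347, and in GFP females 69 and 39. Over all 11387 genes the head order held for 47.4% in GFP males, 29.6% in SR and 34.3% in GFP females, and the abdominal order for 20.7%, 21.3% and 43.3%. The abdominal genes thus kept their order in GFP males and SR at a share far above that of all genes, and in GFP females at a share below it (10.5% against 43.3%). They were picked for a wide gap in N, unlike all genes, so an excess over that share carries no test.

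The levels of the 50 genes with the largest head excess and of the 50 with the largest abdominal excess were summed in each library. The 50 head genes summed to 209336, 197040 and 207544 RPM in N heads and to 323, 229.8 and 61.3 RPM in N abdomens. Abdomen replicate 1 had the highest abdomen level for 38 of the 50. The 50 abdominal genes summed to 66995, 147114 and 22778 RPM in N abdomens and to 8.56, 303 and 36.0 RPM in N heads, where head replicate 2 was the highest for 45 of the 50. Whether head material reached abdomen replicate 1, or abdominal material head replicate 2, was not tested. The abdominal set held 12 lncRNAs and the head set 3. In GFP females the abdominal set summed to 343, 154 and 82.3 RPM in abdomens and to at most 94.6 RPM in heads, against 113419 to 116290 RPM in GFP male abdomens.

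**Figure D2:**
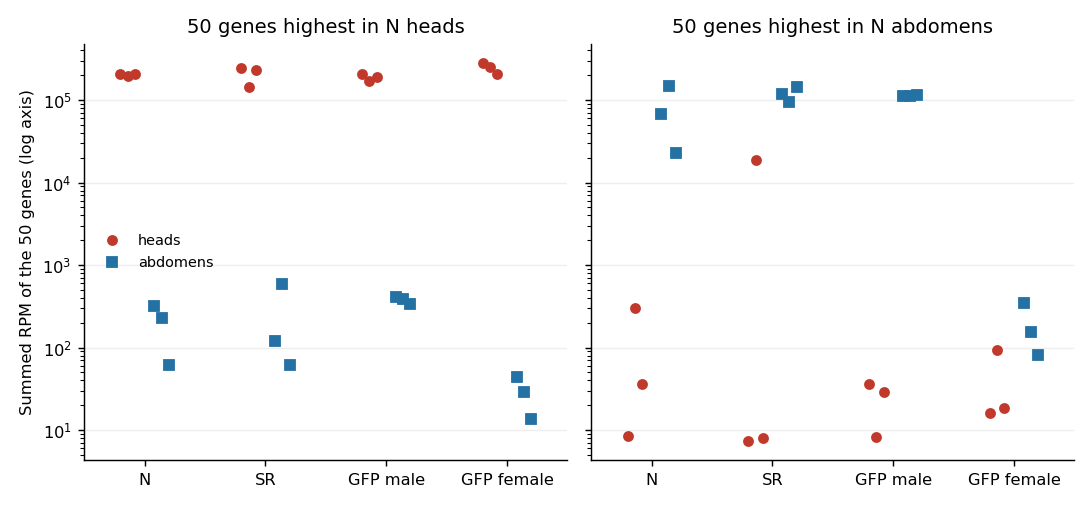
Summed RPM (log axis) of the 50 genes with the largest head excess in N (left) and of the 50 with the largest abdominal excess in N (right), in each of the 24 libraries, with heads as red circles and abdomens as blue squares. The abdominal set reaches 22778 RPM or more in N, SR and GFP male abdomens, at most 343 RPM in GFP female abdomens, and 18695 RPM in SR head replicate 2.

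Of 58 genes known by a symbol or a symbol-like synonym, 54 were tested, 11 were higher in heads (20.4%, against 20.7% of all genes), 8 were lower (14.8%, against 19.6%) and 35 were not called. Their median log2 difference was 0.01, against 0.13 for all genes. They were sorted into 10 groups by the known function of their products, after names and values had been seen, so the groups describe these genes and carry no test.

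Among 7 neural genes, 3 of the 6 tested were higher in heads (20.7% of all genes were) and none was lower (19.6%). The gene pdf encodes pigment-dispersing factor, a neuropeptide that in Drosophila is released by clock neurons, and had 26.9, 47.4 and 53.3 RPM in heads and 0, 0.559 and 0 RPM in abdomens. Its transcript was seen in every head and in abdomen replicate 2 alone among the abdomens (log2 difference 5.17 ± 0.38, SE, n = 3 per tissue, adjusted p = 4.73e-05). Mda2 had 69.7, 144 and 99.8 RPM in heads and 0, 0.372 and 6.89 RPM in abdomens, with abdomen replicate 3 the only abdomen above 1 RPM (log2 difference 5.51 ± 0.74, adjusted p = 0.00103). MdRdl, the GABA-gated chloride channel that cyclodiene insecticides block, was low throughout, with 4.41, 8.53 and 4.04 RPM in heads and 0, 0 and 1.09 RPM in abdomens, and its tissues did not overlap (log2 difference 2.32 ± 0.42, adjusted p = 0.0041). The other neural genes did not pass the test. The voltage-gated sodium channel gene para-like, the target of pyrethroids, had 330.5, 474 and 546 RPM in heads and 321, 166 and 498 RPM in abdomens, which overlap (log2 difference 0.56 ± 0.42, adjusted p = 0.318). LOC101890429, whose synonym is ace for acetylcholinesterase, had 3.55, 11.8 and 5.51 RPM in heads and 2.60, 3.60 and 1.45 RPM in abdomens, with a log2 difference of 1.07 ± 0.46 (adjusted p = 0.0985). The nicotinic receptor subunit gene nAChRbeta3 had the opposite sign, with 16.7, 24.3 and 18.4 RPM in heads and 39.4, 23.95 and 35.2 RPM in abdomens (log2 difference -0.69 ± 0.29, adjusted p = 0.0928); it was called lower in heads with TMM-scaled values (adjusted p = 0.03), by edgeR (adjusted p = 0.0343) and by DESeq2 (adjusted p = 0.00794). Mda6, another subunit gene, stayed under 1 RPM in all 6 libraries and was not tested.

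Both chemosensory genes were tested and 1 was called. Gr2, a gustatory receptor by its symbol, had 25.9, 13.00 and 2.63 RPM in heads and 0.372, 0.186 and 0 RPM in abdomens (log2 difference 3.24 ± 0.68, adjusted p = 0.00732), and the call was lost without both shallow abdomens (adjusted p = 0.0847). IR25a, a co-receptor of ionotropic odorant and taste receptors, had 20.7, 11.4 and 3.29 RPM in heads and 12.3, 5.40 and 17.8 RPM in abdomens. The heads of IR25a spanned the abdominal range (log2 difference -0.16 ± 0.65, adjusted p = 0.872).

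The 4 immune effector genes split. Defensin-1, an antimicrobial peptide, had 1178, 1727 and 433 RPM in heads and 66.2, 172 and 75.5 RPM in abdomens, with every head above every abdomen (log2 difference 3.32 ± 0.56, adjusted p = 0.00295); without both shallow abdomens the adjusted p was 0.0701. Lysozyme, an enzyme that cuts bacterial cell walls and in Drosophila is made largely in the midgut, went the other way with 0.0428, 0.662 and 0.0505 RPM in heads and 45.4, 499 and 16.7 RPM in abdomens (log2 difference -5.93 ± 1.08, adjusted p = 0.00402). Abdomen replicate 2 held about an order of magnitude more lysozyme RNA than the next abdomen, and head replicate 2 was the highest head. The antibacterial peptide genes attacin and diptericin were not called. Attacin had 225, 11.6 and 13.8 RPM in heads and 11.5, 0.869 and 13.4 RPM in abdomens (log2 difference 2.32 ± 1.22, adjusted p = 0.167), and diptericin had 605, 21.2 and 3.39 RPM in heads and 33.1, 28.6 and 2.90 RPM in abdomens (log2 difference 1.30 ± 1.70, adjusted p = 0.576). Replicate 1 was the highest head in both, and the tissues overlapped. With the replicate number as a block, attacin passed (adjusted p = 0.0264).

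Of the genes for sex determination, yolk and patterning, 4 of 6 were tested. Sxl, the sex switch of Drosophila and in house flies a gene expressed in both sexes, had 75.4, 74.3 and 83.7 RPM in heads and 30.5, 19.8 and 34.1 RPM in abdomens. Heads were close to each other and all above the abdomens (log2 difference 1.47 ± 0.26, adjusted p = 0.00368). The gene armadillo, the beta-catenin of flies, had 90.8, 90.97 and 111 RPM in heads and 74.7, 53.2 and 55.1 RPM in abdomens and passed narrowly (log2 difference 0.68 ± 0.23, adjusted p = 0.0494). That call was lost in 12 of the alternatives, among them the fit blocked on replicate number (adjusted p = 0.0753), edgeR (adjusted p = 0.0569) and DESeq2 (adjusted p = 0.0789). The yolk protein gene yp3 was lower in heads, with 19.1, 7.28 and 5.21 RPM in heads and 151, 24.6 and 36.3 RPM in abdomens (log2 difference -2.38 ± 0.71, adjusted p = 0.031), and lost its call in 7 alternatives, among them the fits without abdomen replicate 1 (adjusted p = 0.0644) and without head replicate 2 (adjusted p = 0.0933). For argos, an inhibitor of epidermal growth factor signalling in Drosophila, the log2 difference was 0.01 ± 0.36. The egg-polarity gene bcd and the neural gene achaete had at most 0.186 RPM in any N library and were not tested.

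Cytochrome P450 genes and their redox partners, which oxidise hormones, fatty acids and insecticides, had 1 of 12 called (8.33%, against 40.3% of all genes). That gene, CYP6G4, had 928, 820.2 and 787 RPM in heads and 18.2, 37.98 and 212 RPM in abdomens, a 9.44-fold ratio of means. Heads were alike, whereas abdomens spread over an order of magnitude, with replicate 3 highest (log2 difference 3.96 ± 0.77, adjusted p = 0.00537). CPR, the reductase that hands electrons to P450s, had 183, 159 and 128 RPM in heads and 234, 109 and 108 RPM in abdomens, with a log2 difference of 0.15 ± 0.34 (adjusted p = 0.766). CYP6D3 had 533, 518 and 313 RPM in heads and 1406, 427 and 423 RPM in abdomens, and abdomen replicate 1 alone stood above the head range. The 11 uncalled members had log2 differences from -1.12 (CYP12A1) to 0.86 (LOC101889365, synonym CYP6A1).

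Of 4 glutathione S-transferase and esterase genes, which conjugate or hydrolyse foreign compounds, GST was higher in heads, with 657, 905 and 1617 RPM in heads against 304, 124 and 232 RPM in abdomens (log2 difference 2.25 ± 0.44, adjusted p = 0.00531). LOC101897277, whose synonyms are glutathione S-transferase names, was lower, with 35.1, 19.8 and 5.96 RPM in heads and 93.3, 489 and 80.2 RPM in abdomens (log2 difference -3.16 ± 0.81, adjusted p = 0.0169). Its call was lost without head replicate 3 (adjusted p = 0.0563). GST-6A and the esterase gene MdaE7 had log2 differences of -0.21 ± 0.43 and -0.15 ± 0.37 and were not called. None of the 3 superoxide dismutase genes, which remove superoxide, was called, with log2 differences of 0.46 (SOD), 0.51 (SOD1) and 0.37 (SOD2).

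Chaperone genes were lower in heads for 3 of 6 (19.6% of all genes were) and higher for none (20.7%). The small heat shock protein gene hsp20 had 81.3, 127 and 88.7 RPM in heads and 408, 786 and 902 RPM in abdomens, with every abdomen above every head (log2 difference -2.76 ± 0.35, adjusted p = 7.52e-04). CCT-delta and CCT-zeta, subunits of the chaperonin that folds actin and tubulin, had log2 differences of -0.94 ± 0.29 (adjusted p = 0.0351) and -0.91 ± 0.22 (adjusted p = 0.0129). CCT-delta had 51.5, 63.1 and 61.3 RPM in heads and 169.6, 94.9 and 89.6 RPM in abdomens, and lost its call without any single head and without abdomen replicate 1 (adjusted p up to 0.117). CCT-zeta lost its call without head replicate 2 (adjusted p = 0.0576), without head replicate 3 (adjusted p = 0.0553) and without both shallow abdomens (adjusted p = 0.0839). Another subunit, CCT-eta, had 138, 155 and 158 RPM in heads and 137, 124 and 135 RPM in abdomens, and did not pass (log2 difference 0.18 ± 0.20, adjusted p = 0.493). HSP70 and prohibitin, a scaffold protein of the inner mitochondrial membrane, were not called either, with log2 differences of 0.52 ± 0.29 and 0.64 ± 0.31.

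Of 4 serpin genes, whose products inhibit proteases, Spn2 was higher in heads, with 14.3, 24.3 and 5.05 RPM in heads against 1.49, 1.49 and 0.726 RPM in abdomens (log2 difference 2.59 ± 0.53, adjusted p = 0.00655; without both shallow abdomens, adjusted p = 0.0818). SPN9, SPN13 and SPN15 had log2 differences of -0.10, 0.29 and 0.69 and were not called. Of 9 other symbols tested, TCTP, the translationally controlled tumour protein linked to growth, was lower in heads, with 393, 312 and 302 RPM in heads and 921, 1020.0 and 874 RPM in abdomens (log2 difference -1.49 ± 0.23, adjusted p = 0.00185). The protease gene caspase-1, whose class acts in cell death, was lower too, with 10.6, 11.1 and 9.30 RPM in heads and 23.4, 21.5 and 20.7 RPM in abdomens (log2 difference -1.02 ± 0.24, adjusted p = 0.0132); its adjusted p was 0.052 without head replicate 2, 0.0529 without head replicate 3 and 0.0664 without both shallow abdomens. The nuclear receptor gene HR96 was higher in heads, with 12.5, 14.6 and 20.7 RPM in heads and 8.92, 6.33 and 5.08 RPM in abdomens (log2 difference 1.12 ± 0.33, adjusted p = 0.0282), and lost its call in 6 alternatives, among them every library thinned to the shallowest (adjusted p = 0.0882). ODC (ornithine decarboxylase), AQP (an aquaporin), TPS (trehalose-6-phosphate synthase), Sgf11, THY and CPI were not called. CPI varied most, with 239.9, 5.88 and 2.38 RPM in heads and 5989, 4.10 and 10.5 RPM in abdomens, replicate 1 being far above the others in both tissues (log2 difference -1.99 ± 2.72, adjusted p = 0.595).

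**Figure D3:**
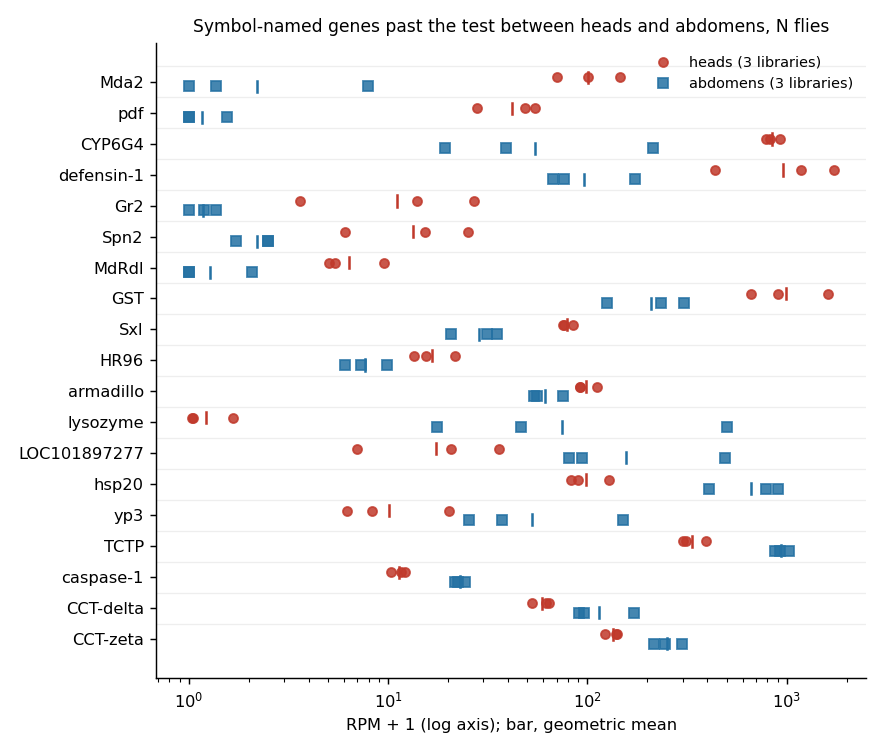
RPM + 1 (log axis) of the 19 called genes with a symbol or synonym in each of the 3 N heads (red circles) and 3 N abdomens (blue squares), with the geometric mean as a bar. Genes are ordered by log2 difference; Mda2 and pdf show the widest gap toward heads and lysozyme the widest toward abdomens.

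By gene class, against 20.7% higher and 19.6% lower over all genes, lncRNAs were more often lower in heads, a difference that was not tested. Of 238 lncRNA genes tested, 56 (23.5%) were higher and 78 (32.8%) lower in heads, and of 10028 protein-coding genes 2083 (20.8%) and 1870 (18.6%). By Muller element, the conserved chromosome arms of flies, elements A to E had 20.3% to 21.1% of their genes higher in heads. Element F, a small element with 33 genes tested, had 12 higher (36.4%) and 5 lower (15.2%). The difference between elements was not tested. With all 6 libraries thinned to the same 2689265 reads, the median SD of log2 level among replicates was 0.256 in heads and 0.388 in abdomens over 3909 genes. A range of more than 4-fold among replicates was found for 2.61% of these genes in heads and for 7.34% in abdomens, and the larger spread of N abdomens was thus seen at equal depth.

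Whether the head to abdomen difference of N itself differed from that of the other groups was tested as an interaction in 1 fit of all 24 libraries, over 12736 genes. Across genes, the difference in N correlated with that in GFP males (Pearson r = 0.84, Spearman rho = 0.71) and in SR (0.84 and 0.76) more than with that in GFP females (0.30 and 0.17). These are descriptions over genes, which are not independent replicates, and no library is shared between the groups. Of the 4587 genes called in N, 89.0% had the same sign in GFP males, 93.7% in SR and 54.2% in GFP females. Over all 12736 genes these shares were 75.8%, 78.2% and 50.7%.

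**Figure D4:**
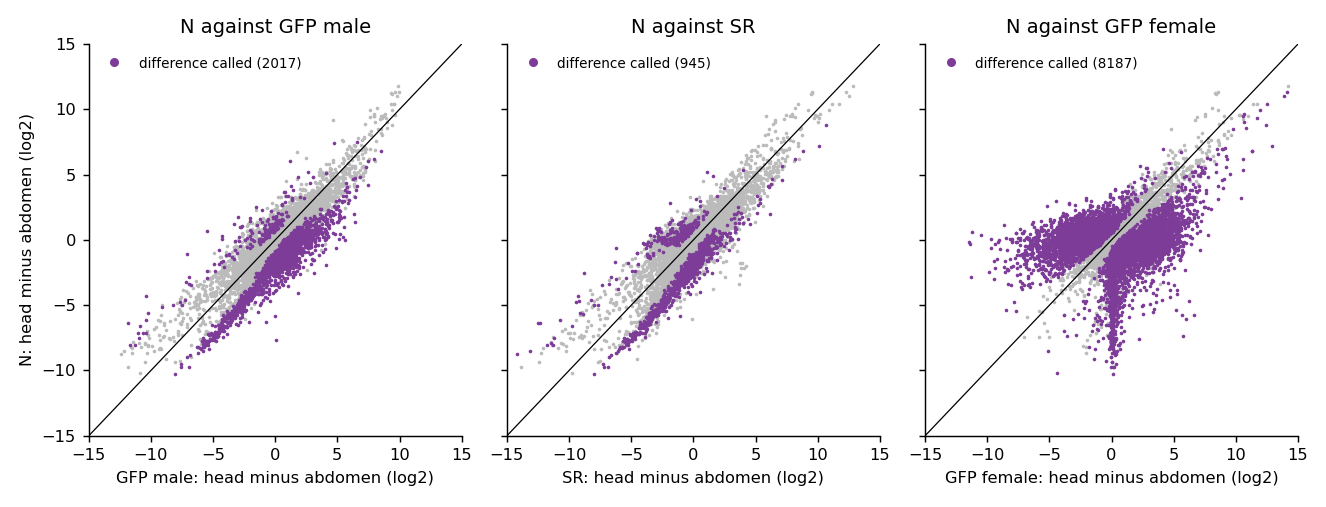
Head minus abdomen difference (log2(RPM + 1), means of 3 libraries) of 12736 genes in N (vertical) against GFP males, SR and GFP females (horizontal), with the diagonal of equal differences. Purple points are genes whose difference was called different between the groups, 2017 against GFP males, 945 against SR and 8187 against GFP females, the last including a vertical band of genes low in N heads and near 0 on the GFP female axis.

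Against GFP males, the tissue difference was called different for 2017 genes (15.8%), 205 more positive in N (1.61%), that is shifted toward heads, and 1812 more negative (14.2%). More genes were negative than positive in every alternative run, but the imbalance depended on scaling. The median over all genes was -0.27 and 0.02 with TMM-scaled values, and TMM gave 534 positive and 1341 negative genes. How much of each negative log2 value is a shift common to all genes was not tested. edgeR called 958, 386 positive and 572 negative, and DESeq2 called 701 positive and 1047 negative. The count fell to 1179 without GFP male abdomen replicate 1 and also without GFP male head replicate 2, and to 478 without both shallow N abdomens. Among the 1812 negative genes the median N minus GFP male difference was -0.80 in heads and 1.02 in abdomens.

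The 5 named genes more positive in N than in GFP males all had lower levels in N abdomens than in GFP male abdomens. LOC101897056 had 622, 2076 and 1365 RPM in N abdomens and 67156, 37698 and 16743 RPM in GFP male abdomens, with heads at 1531, 3488 and 1362 and 945, 823 and 553 RPM. All N abdomens lay below all GFP male abdomens, and the difference of differences was 6.21 ± 1.21 (log2, SE, adjusted p = 0.00225); without both shallow N abdomens its adjusted p was 0.0554. LOC101895737 and LOC109612459 likewise had lower abdominal levels in N, LOC109612459 with 327, 614 and 185 RPM against 6366, 8043 and 6516 RPM in GFP males, and differences of 6.17 ± 1.24 and 5.49 ± 1.00. LOC109613171 differed by 6.00 ± 1.53, a call lost in edgeR (adjusted p = 0.169) and without both shallow N abdomens. LOC101897967 was higher in N heads, with 387, 320.3 and 118 against 153, 73.4 and 132 RPM, which overlap, and lower in N abdomens, with 2.97, 3.35 and 2.18 against 36.1, 57.1 and 62.4 RPM, which do not (difference 4.85 ± 0.72).

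In the other direction, LOC101897982 and LOC101900870 were head genes in GFP males and not in N. LOC101897982 had 6.85, 12.7 and 13.8 RPM in N heads and 9.67, 8.63 and 15.2 RPM in N abdomens, against 87.7, 255 and 202 and 2.20, 3.16 and 2.23 RPM in GFP males (difference -5.60 ± 0.76, adjusted p = 2.20e-04). The N tissues overlapped and the GFP male tissues were apart by more than an order of magnitude. LOC101900870 differed by -5.55 ± 0.69 (adjusted p = 1.26e-04). LOC101895942 reversed its order, with 9.38, 7.45 and 14.8 RPM in N heads and 115, 33.9 and 70.4 RPM in N abdomens, against 84.5, 168 and 133 and 6.60, 14.95 and 22.4 RPM in GFP males (difference -5.71 ± 1.06; adjusted p = 0.0525 without both shallow N abdomens). The lncRNA LOC109612145 had no read in any GFP male abdomen and 136, 1728 and 47.5 RPM in N abdomens, a difference of -7.72 ± 2.57 with an adjusted p of 0.0472. The call was lost in 18 of 24 alternatives, among them the replicate block (adjusted p = 0.0536), TMM scaling (adjusted p = 0.0591), edgeR (adjusted p = 0.121), thinning and the fits without any single N head, GFP male head or GFP male abdomen and without N abdomen replicate 1 or 2. Without N abdomen replicate 2 the difference was -6.25 (adjusted p = 0.105). In SR abdomens the same lncRNA was at 1139, 0 and 2754 RPM, present in 2 of 3 flies. LOC109612146 had the same pattern of presence, differed by -5.83 ± 1.96 (adjusted p = 0.0492) and lost its call in 19 alternatives, with the block (adjusted p = 0.0537), in edgeR (adjusted p = 0.42) and, at -4.74, without N abdomen replicate 2 (adjusted p = 0.109). Of the 56 symbol-named genes tested, 2 were called. The subunit gene nAChRbeta3 had 23.1, 24.6 and 23.8 RPM in GFP male heads and 9.94, 4.81 and 5.81 RPM in their abdomens, so the difference from N was -2.40 ± 0.55 (adjusted p = 0.00652). For armadillo it was -1.29 ± 0.31 (adjusted p = 0.00979). Both calls were lost in edgeR (adjusted p = 0.0851 and 0.0999) and without both shallow N abdomens. With the replicate number as a block attacin (difference 3.91, adjusted p = 0.0447 against 0.22 without the block) and TCTP (-0.89, adjusted p = 0.0403 against 0.0669) passed as well.

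Against SR, the other group with Md-tra RNAi, the tissue difference was called different for 945 genes (7.42%), 265 more positive in N (2.08%) and 680 more negative (5.34%). This count was the least stable: it was 444 in edgeR (285 positive and 159 negative), 595 with all libraries thinned, 391 without SR abdomen replicate 2, 522, 484 and 524 without N head replicates 1, 2 and 3, 584 without SR head replicate 1 and 147 without both shallow N abdomens. In a fit of only the 12 libraries of both groups, 15 genes were called (2123 at an unadjusted p under 0.05). Without SR head replicate 2, the library with a raised sum of abdominal genes, 738 were called. With TMM-scaled values 540 were positive and 632 negative. Among the 680 negative genes the median N minus SR difference was 2.02 in abdomens and -0.01 in heads. The abdominal part was the larger for 657 of them (96.6%) and for 234 of the 265 positive genes (88.3%). Over all 12736 genes tested it was the larger for 68.9%.

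Of the 5 named genes more negative in N than in SR, LOC109613331 had the most negative difference. It had 82.2, 35.7 and 58.8 RPM in N abdomens and 1.59, 0.312 and 1.91 RPM in SR abdomens, and in heads at most 0.0583 RPM in either group. N abdomens were thus all above SR abdomens (difference -4.75 ± 0.41, adjusted p = 6.57e-06), and the call was lost in edgeR (adjusted p = 0.169). LOC101897749, the least negative of the 5, had 119.7, 45.4 and 42.4 RPM in N abdomens and 1.79, 0.936 and 12.1 RPM in SR abdomens (difference -3.92 ± 0.75), and did not pass in edgeR (adjusted p = 0.9999), in DESeq2 (adjusted p = 0.467), in the fit of 12 libraries (adjusted p = 0.078) or without both shallow N abdomens (adjusted p = 0.0604). LOC101897802, whose call was kept in every alternative run, had 99.1, 142 and 266 RPM in N heads and 57.3, 19.5 and 50.1 RPM in N abdomens, against 257, 513 and 304 and 4.79, 2.64 and 4.48 RPM in SR (difference -4.15 ± 0.59, adjusted p = 9.94e-04). LOC109612832 and LOC101899342 differed by -4.49 ± 0.93 and -4.03 ± 0.81, and both lost their call in the fit of 12 libraries and without both shallow N abdomens. In the other direction, LOC101896660 had 39.04, 3.97 and 3.99 RPM in N abdomens against 565, 311 and 497 RPM in SR abdomens (difference 6.27 ± 1.33, adjusted p = 0.0115). LOC101889437 differed in heads, with 18.4, 22.2 and 18.3 RPM in N and 0.0955, 0.112 and 0.0583 RPM in SR heads, the abdomens overlapping (difference 5.65 ± 1.30). For this gene, N heads were like GFP male heads (19.0, 18.4 and 20.3 RPM) and SR heads like GFP female heads (0, 0.0694 and 0.310 RPM). The genotype of N and SR, on which titles and headers disagree, was not tested. LOC101887882, LOC109612459 and the lncRNA LOC101894025 differed by 6.16 ± 1.62, 5.97 ± 1.00 and 5.51 ± 1.45. The calls of LOC101889437 and LOC109612459 were lost in 2 alternatives each, the fit of 12 libraries and the fit without both shallow N abdomens, and those of LOC101887882 and LOC101894025 in 9 and 8, including the fits without N abdomen replicate 3, SR abdomen replicate 2, N head replicate 2 or 3, or SR head replicate 1. Of the symbol-named genes, 6 of 56 were called: nAChRbeta3 (-2.17 ± 0.55) and THY (-1.44 ± 0.30) more negative in N, and CPR (1.36 ± 0.38), CYP6D8 (3.17 ± 0.92), prohibitin (1.32 ± 0.32) and SPN15 (1.63 ± 0.45) more positive. Each of these 6 calls was lost in the fit of 12 libraries, and in all 2 alternatives ended the call of THY, 4 that of prohibitin, 9 those of nAChRbeta3 and CPR, 11 that of SPN15 and 16 that of CYP6D8. Without SR abdomen replicate 2, THY alone of the 6 kept its call. For THY, abdomens were at 338, 261 and 369 RPM in N and 113, 95.01 and 111 RPM in SR, and heads were at 303, 333 and 285 and 303, 261 and 274 RPM.

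**Figure D5:**
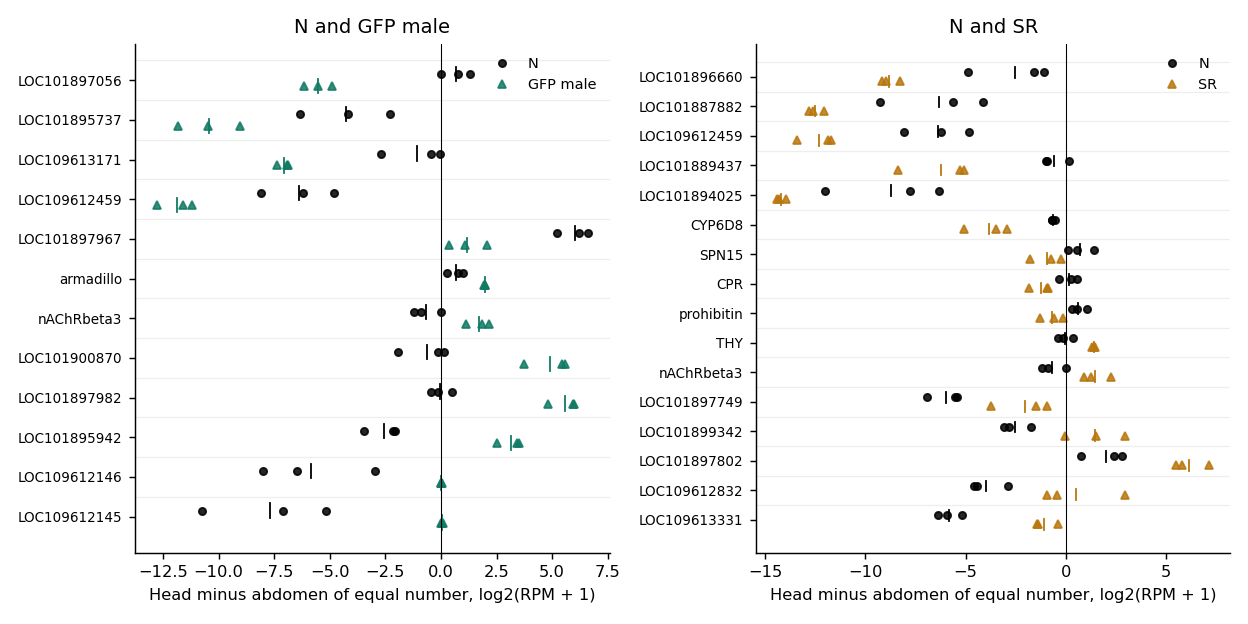
Head minus abdomen difference on log2(RPM + 1) for the named genes whose difference was called different between N (black circles) and GFP males (left, green triangles) or SR (right, orange triangles). Each point sets a head against the abdomen of equal number, 3 per group, and bars are means; LOC101897056 is near 0 in N and near -5.5 in GFP males.

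Against GFP females, the group of the other phenotypic sex, 8187 genes (64.3%) differed, 4817 (37.8%) more positive in N and 3370 (26.5%) more negative. The difference lay mostly in abdomens. Among positive genes the median N minus GFP female difference was -2.10 in abdomens and 0.15 in heads, and among negative genes 3.03 and 0.01. The abdominal part was the larger for 97.3% of the positive and 96.8% of the negative genes, and for 87.7% of all genes tested. The split depended on the tool, with 47.8% positive in edgeR and 39.0% in DESeq2, against 58.8%. The leading genes were abdominal in GFP females: LOC101889373 had 17830.2, 3263 and 962 RPM in GFP female abdomens and 1.49, 0.683 and 0 RPM in N abdomens, and LOC101890831 and LOC101891006 shared that pattern (differences 11.82 ± 1.35, 11.32 ± 1.10 and 11.08 ± 1.27). Among symbols, bcd, the anterior determinant laid down in Drosophila eggs, had 186, 136 and 206 RPM in GFP female abdomens and at most 0.186 RPM in N (difference 7.36 ± 0.22, adjusted p = 1.65e-14). The spread behind this p is shared by all 24 libraries, and outside GFP female abdomens bcd was at most 0.186 RPM in any library. With the replicate number as a block its adjusted p was 3.38e-08. Also more positive in N were armadillo (3.60 ± 0.31), with 810.3, 752 and 862 RPM in GFP female abdomens, and Sxl (2.34 ± 0.33), with 126, 132 and 163 RPM there. In both, GFP female abdomens exceeded every N library.

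Of the 56 symbol-named genes tested, 13 were more positive in N and 25 more negative, against 37.8% and 26.5% of all genes. Of 6 chaperone genes, 4 were more positive and 1 more negative. More negative in N were 9 of 12 P450 system genes and 4 of 4 glutathione S-transferase and esterase genes, against 26.5% of all genes. In each of them every GFP female abdomen lay below every N abdomen, although LOC101896437, with a cytochrome b5 synonym, still had 108, 111 and 81.7 RPM in GFP female abdomens. The calls of CYB2, CYP12A1 and LOC101891761 were lost in 1, 2 and 9 alternatives. CYB1 had 2.83, 2.38 and 0.899 RPM in GFP female abdomens and 129.8, 120.3 and 72.2 RPM in N abdomens (difference -5.60 ± 0.68), CYP6G4 had 3.50, 0.761 and 0.635 and 18.2, 37.98 and 212 RPM (-5.02 ± 1.02), and GST had 23.2, 1.33 and 1.32 and 304, 124 and 232 RPM (-4.38 ± 0.92). GFP female abdomens lay below every N abdomen in all 3 genes. SPN9 (-5.55 ± 0.52) and nAChRbeta3 (-4.68 ± 0.55) followed the same pattern. The yolk gene yp3 differed by -6.62 ± 2.43 (adjusted p = 0.0232), with GFP female heads at 5126, 55.7 and 867 RPM and abdomens at 975, 1.29 and 15.7 RPM, a spread so wide that the call was lost in 6 alternatives, among them the fit without GFP female head replicate 1 (adjusted p = 0.0759). By identifier, LOC101898872, LOC101889983 and LOC109612647 had the most negative differences (-13.10 ± 2.75, -12.43 ± 2.99 and -12.03 ± 4.71). LOC109612647 lost its call in 8 alternatives: pseudocount 5, array weights, and without N head replicate 1 or 3, GFP female head replicate 2, GFP female abdomen replicate 1 or 3, or N abdomen replicate 2, where it was -9.83 (adjusted p = 0.09). LOC101898872 had 339.9, 2234 and 1136 RPM in N abdomens and 0.0856, 51.2 and 2.58 RPM in N heads, against 60.9, 9.22 and 64.95 and 1043, 990.1 and 6372 RPM in GFP females, so that the order of the tissues was reversed.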

How the data were processed

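The submitters sequenced poly(A) RNA of heads and abdomens dissected from single flies, with a stranded kit and 1.5 µg of RNA per N library, per the labels' protocols. HISAT2, HTSeq 0.9.1, DESeq2 1.16.1 and CASAVA 1.8 are named in the submitters' processing notes, with no role stated, and the genome build is not given in the sources used here. For each tissue the authors deposited a table of 16540 genes, with a signal that the headers call normalized counts (reads divided by a size factor of the library). Because the 2 tables were scaled apart, each column was divided by its smallest value above 0, which gave whole reads for 100% of values within 0.001, and levels were recomputed as RPM (reads scaled to 1000000 per library). The reference gene table (RefSeq) matched 13644 identifiers and gives symbols and biotypes without descriptions.

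Genes with at least 1 RPM in 3 libraries were tested on log2(RPM + 1) with limma 3.58.1 (R 4.3.3, trended prior), with Benjamini-Hochberg adjustment of p over all tested genes and a threshold of 0.05. Head was set against abdomen in the 6 N libraries, and the difference of this difference from each other group was tested in all 24 libraries. Log2 values understate the change of low genes. edgeR 4.0.16, DESeq2 1.42.0 (both on the recovered reads), TMM scaling, pseudocounts of 0.5 and 5, other filters, thinning, array weights and left-out libraries were alternatives; edgeR called 4568 genes between N heads and abdomens. The code of the fits was run on simulated reads with the same dispersion for all genes and no effect of fly or batch. That run does not test the calls made in these data. Floors of 3 reads cover counting error only.

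Equal replicate numbers deviated together in N (correlations of 0.22, 0.29 and 0.29 over genes, and -0.20 to -0.08 for unequal numbers). Taking deviations from group means makes unequal numbers negative on balance where equal ones are positive. Equal numbers can thus be paired in N, but no label says that a head and an abdomen came from the same fly. Whether they share a fly or another factor was not tested. In the other groups not every pair passed 0.1 except in GFP males. The fit without the block, which treats heads and abdomens as independent, is the one reported. Nothing says that the flies came from separate cultures or injections, so p-values measure the spread between flies.

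Genes were named by a rule: per direction the 10 called genes with the largest log2 difference, a mean of at least 50 RPM and no overlap, the 10 genes with the most reads per tissue and every symbol; for differences between groups the 5 largest per direction, of which 3 are given for GFP females. Of 29 lists of pathway names 14 matched no symbol and the others 1 to 11 genes, so 58 symbols were sorted into 10 groups instead, which hold every matched gene. The libraries compared, lists and groups were chosen with earlier results of these data known. Paralogs and overlapping genes may share reads. Sequences are not used here.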

Additional observations from a re-analysis of the deposited data

Results flagged for a closer look

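The head to abdomen difference of N differed from that of another group by the interaction test (limma, Benjamini-Hochberg adjusted p under 0.05) for 2017 genes against GFP males, 8187 against GFP females and 945 against SR. Values below are log2 differences of the difference, N minus the other group. Against GFP males the named genes with positive values were LOC101897056 (6.21), LOC101895737 (6.17), LOC109613171 (6.00), LOC109612459 (5.49) and LOC101897967 (4.85), and those with negative values were LOC109612145 (-7.72), LOC109612146 (-5.83), LOC101895942 (-5.71), LOC101897982 (-5.60), LOC101900870 (-5.55), nAChRbeta3 (-2.40) and armadillo (-1.29). Against SR, positive values belonged to LOC101896660 (6.27), LOC101887882 (6.16), LOC109612459 (5.97), LOC101889437 (5.65), LOC101894025 (5.51), CPR (1.36), CYP6D8 (3.17), prohibitin (1.32) and SPN15 (1.63), and negative values to LOC109613331 (-4.75), LOC109612832 (-4.49), LOC101897802 (-4.15), LOC101899342 (-4.03), LOC101897749 (-3.92), nAChRbeta3 (-2.17) and THY (-1.44). Against GFP females, positive values belonged to LOC101889373 (11.82), LOC101890831 (11.32), LOC101891006 (11.08), bcd (7.36), armadillo (3.60) and Sxl (2.34), and negative values to LOC101898872 (-13.10), LOC101889983 (-12.43), LOC109612647 (-12.03), yp3 (-6.62), CYB1 (-5.60), SPN9 (-5.55), nAChRbeta3 (-4.68), CYP6G4 (-5.02) and GST (-4.38). LOC109612145 and LOC109612146 were at 0 RPM in all 3 GFP male abdomens and in SR abdomen replicate 2, and were read in the other SR abdomens and in all 3 N abdomens.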

How the results depend on the processing

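The count of genes called between N heads and abdomens, 4587, stayed within 1.5 times under TMM scaling, edgeR, DESeq2, other pseudocounts and filters, array weights, thinning and all 24 libraries. It moved to 2525 without both shallow N abdomens and ranged from 2745 to 3361 when 1 library was left out. The count against GFP males, 2017, became 958 in edgeR and 478 without both shallow N abdomens, and ranged from 1179 to 2457 with 1 library left out. The count against SR, 945, became 444 in edgeR, 595 after thinning, 147 without both shallow N abdomens and 15 in the fit of 12 libraries, and ranged from 391 to 1389 with 1 library left out. The count against GFP females, 8187, stayed within 1.5 times in every alternative run. Leaving out both shallow abdomens leaves 1 N abdomen. Within N the spread then comes from the 3 heads alone, which varied less than the abdomens at equal depth (median SD 0.256 against 0.388). In the differences between groups it comes from the other libraries. The cause of these moves was not tested, beyond fewer samples where libraries were left out.

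With the replicate number as a block (pairing head and abdomen of equal number), the counts were 4688 in N, and 1854, 8464 and 719 for the differences from GFP males, GFP females and SR. For named genes, the block ended the calls given with their blocked p in the report (armadillo between N tissues, LOC109612145 and LOC109612146 against GFP males), and those of nAChRbeta3 and SPN15 against SR and of SOD2 against GFP females. It gave calls to attacin between N tissues, to attacin and TCTP against GFP males, and to diptericin, CYP6A24, SOD and CPI against GFP females (adjusted p = 0.0137, 0.0343, 0.0157 and 0.00852). In SR and GFP females the number is shared without every pair passing the check.

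Under DESeq2 the difference from GFP females turned sign for pdf, from 0.77 to -4.24 (adjusted p = 0.0364), and for TCTP, from 0.81 to -0.036 (adjusted p = 0.941). In DESeq2 the median of that difference over all genes was -0.89, against 0.20. Of 46 called named genes between N tissues, 31 kept their call in every alternative. Of the called named genes, 5 of 12 kept it against GFP males, 2 of 16 against SR and 34 of 48 against GFP females. Depth limits low genes in abdomen replicates 1 and 3, where 1 read is worth 0.372 and 0.363 RPM.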
